A study of Homo sapiens with 4 samples.

Results

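MiR-483 and miR-675 are the microRNAs of the imprinted IGF2-H19 locus, and 3 of the 1733 miRNAs listed in the count files were taken for them by name: hsa-miR-483-3p, hsa-miR-483-5p and hsa-miR-675. They were selected on earlier results of these data, in which the count of hsa-miR-483-3p had been seen to be lower in Hep3B-C than in Hep3B, so their levels are given as a description and no test was made of them. Small RNA was sequenced from human hepatoma cultures (the HCC cell lines Huh7 and Hep3B) and from stem-like populations grown out of them, Huh7-C and Hep3B-C (hepatic cancer stem cells, HCSCs). Each of the 4 had 1 library, with no replicates, so every interval reflects counting error alone and replicate error is unknown. No treatment, time point or engineered allele is given for any of them, each population stands for 1 line, and RNA came from whole cultures, in which fewer expressing cells and less RNA per cell cannot be told apart.

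IGF2, a fetal growth factor, and H19, a non-coding RNA of the fetal liver, are neighbouring imprinted genes: in most tissues IGF2 is transcribed from the paternal copy and H19 from the maternal copy. Both are strongly transcribed in fetal liver, H19 is largely silent in adult liver, and both can be active in hepatoma. This is why the locus is called oncofetal. A miRNA hairpin is cut from a longer RNA, and either of its arms can be loaded into the silencing complex, where bases 2 to 8 of the mature miRNA (the seed) pair with target mRNAs.

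In the GRCh38 annotation of GENCODE release 29, MIR483 lies on the minus strand of chromosome 11 from 2134134 to 2134209. It is inside 9 of the 11 annotated IGF2 transcripts and overlaps no IGF2 exon, so it is intronic. MIR675 lies 137302 bases away on the same strand, inside exon 1 of 4 of the 12 annotated H19 transcripts. The count files hold no positions, and these were matched by name. The files use the names of miRBase release 17 and hold no sequences; hsa-miR-675 was taken as the 5p arm of its hairpin and hsa-miR-675* as the 3p arm, from general knowledge of the older names. The starred arm is described beside the 3 chosen miRNAs because it comes from the same hairpin. RefSeq sequence was at hand for 1 of the 3, hsa-miR-675, and not for hsa-miR-483-3p and hsa-miR-483-5p. The MIR675 hairpin (GRCh38.p14, chr11:1996759-1996831, minus strand) is shown with both mature arms in capitals, since the balance of its arms is one of the results, and the mature arms follow with their seeds in capitals.
MIR675 hairpin: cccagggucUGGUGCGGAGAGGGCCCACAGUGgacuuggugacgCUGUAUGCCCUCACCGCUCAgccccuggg
hsa-miR-675-5p (hsa-miR-675 in the files): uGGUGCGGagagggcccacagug
hsa-miR-675-3p (hsa-miR-675* in the files): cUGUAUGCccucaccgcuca
hsa-miR-4466: gGGUGCGGgccggcgggg
The last of these is shown because it is the other mature miRNA of the RefSeq table with the seed of hsa-miR-675. It had at most 2 counts in a library. The seed of the starred arm was shared by 0 other mature miRNAs of the table.

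Counts assigned to miRNAs ranged from 1739278 in Hep3B to 5741567 in Huh7, and made up between 10.4% (Hep3B) and 54.1% (Huh7) of the total reads of a library. Levels are given as TPM, that is counts per 1000000 reads of all RNA classes in a library. One read is counted per mature miRNA whatever its length, so TPM needs no length correction. The smallest level the depth can show, taken as 3 counts, was between 0.179 TPM in Hep3B and 0.282 TPM in Huh7. The hepatocyte miRNAs hsa-miR-192 and hsa-miR-194 were abundant in all 4 libraries. They therefore cannot check which label belongs to which library. Hsa-miR-122 stood at 23.7 TPM in Hep3B and between 9708 and 46077 TPM in the other 3. The 4 blood-cell miRNAs looked at summed to between 1 and 8 counts in Hep3B, Hep3B-C and Huh7-C and to 796 counts in Huh7, of which 773 were hsa-miR-451. Whether blood-cell RNA had a part in the levels of Huh7 was not tested.

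Hep3B was the library with the highest level of all 3 miRNAs. Hsa-miR-483-5p, the 5p arm of the IGF2 intron hairpin, had 9350 counts in Hep3B, 4393 counts in Hep3B-C and 0 counts in both Huh7 and Huh7-C. This is 557 TPM in Hep3B (95% exact Poisson interval 546 to 569) and 285 TPM in Hep3B-C (276 to 293). It was the 28th most abundant of the 674 miRNAs with a count in Hep3B, and the 57th of 773 in Hep3B-C. Hsa-miR-483-3p, the opposite arm and the one best known as an oncogenic miRNA, had 236 counts in Hep3B, 27 counts in Hep3B-C and again 0 counts in both Huh7 and Huh7-C. Its level was 14.1 TPM in Hep3B (12.3 to 16.0) and 1.75 TPM in Hep3B-C (1.15 to 2.54), so the intervals of these libraries did not overlap. Hsa-miR-675, cut from the H19 exon and known to restrain the placental growth that H19 controls, had 27 counts in Hep3B, 21 counts in Hep3B-C, 1 count in Huh7 and none (0) in Huh7-C. It stood at 1.61 TPM in Hep3B (1.06 to 2.34) and at 1.36 TPM in Hep3B-C (0.842 to 2.08). Per total reads, these levels do not differ beyond counting error. The starred arm hsa-miR-675* had 233 counts in Hep3B (13.9 TPM), 135 counts in Hep3B-C (8.74 TPM), 4 counts in Huh7 and 1 count in Huh7-C. The order of the levels of both miR-483 arms was therefore Hep3B, Hep3B-C and then both Huh7-derived libraries. For hsa-miR-675, Hep3B and Hep3B-C were not separated in TPM, though they were with the other library sizes given below. The Huh7-derived libraries cannot be told apart for any of the 3, since all are under the level of 3 counts. The 95% exact Poisson interval of a count of 0 reaches 0.347 TPM in Huh7 and 0.344 TPM in Huh7-C.

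**Figure D1:**
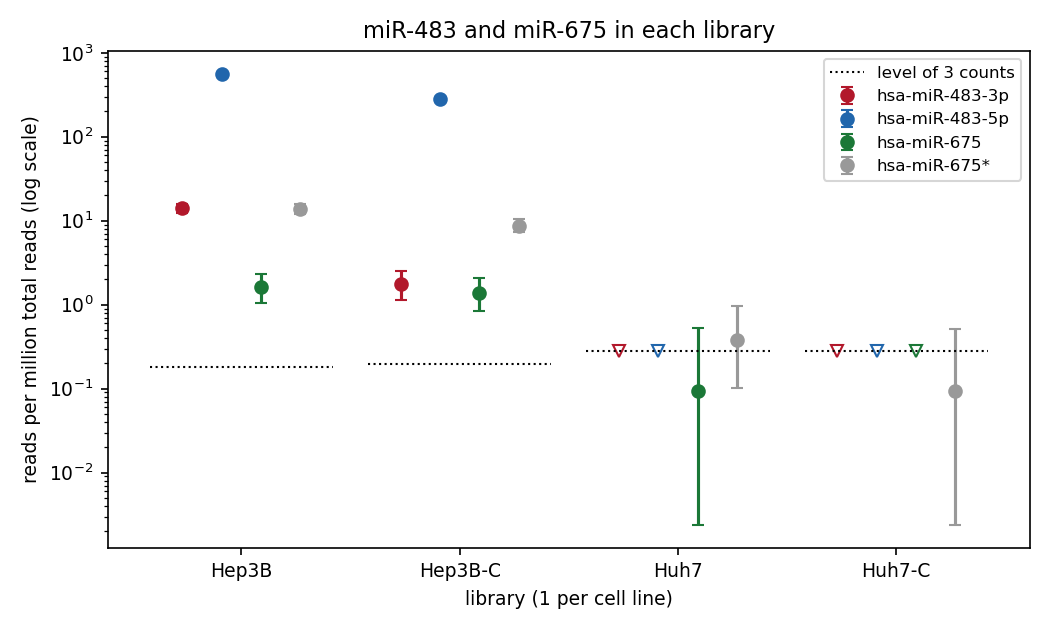
Level of each miRNA in each library, in TPM on a log scale, with points for counts above 0, bars for 95% exact Poisson intervals, dotted lines at 3 counts, and open triangles on that line for a count of 0. The 4 miRNAs stand well above the line in both Hep3B-derived libraries and near or under it in both Huh7-derived libraries.

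The first comparison was of stem-like Hep3B-C cells with the Hep3B cells they came from. Hsa-miR-483-3p was 7.91-fold lower in Hep3B-C, or -2.98 on the log2 scale (95% exact binomial interval -3.64 to -2.43, 0.5 counts added to each count for the point value). Hsa-miR-483-5p was 1.96-fold lower, or -0.97 on the log2 scale (interval -1.02 to -0.92). For hsa-miR-675 the log2 fold-change was -0.23, and its interval ran from -1.14 to 0.63. With total reads as the library size, a difference was thus not detectable beyond counting error. Other library sizes are given below. The log2 fold-change of its starred partner hsa-miR-675* was -0.66 (interval -0.98 to -0.36). At a threshold of 2-fold, 1 of the 3 miRNAs was lower in Hep3B-C, hsa-miR-483-3p, and none was higher. Over the 475 miRNAs that reached 10 counts in a library of the pair, 24 (5.05%) were lower by this rule and 316 (66.5%) were higher. Since an earlier view of this same contrast led to the choice of hsa-miR-483-3p, nothing is read from that count. The whole interval of hsa-miR-483-3p lay past 2-fold. The interval of hsa-miR-483-5p included 2-fold, so counting error does not settle on which side of the threshold it lies. The median log2 fold-change of the 3 miRNAs was -0.97, against 1.42 over all 475.

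**Figure D2:**
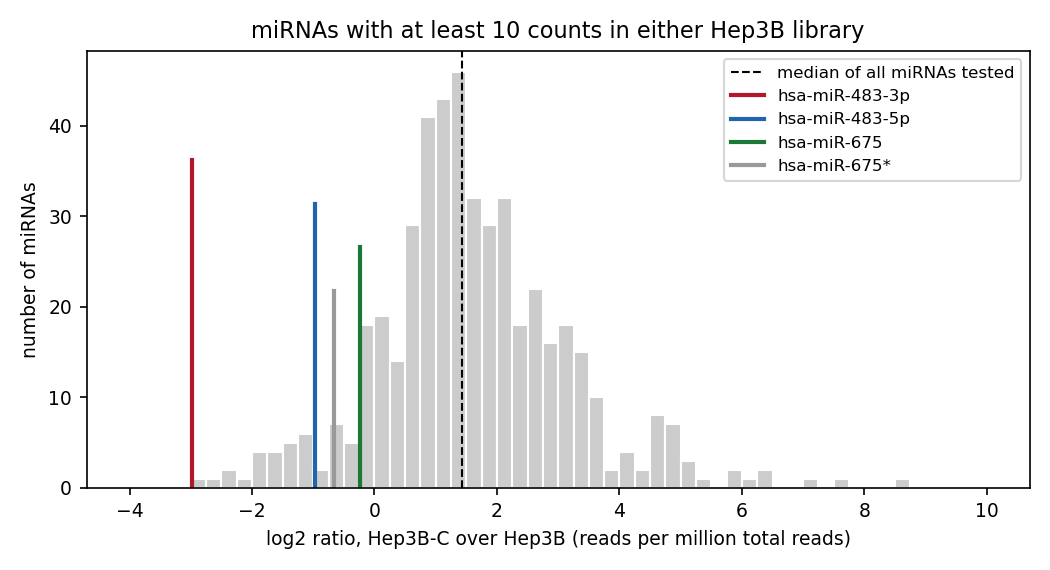
Number of miRNAs by log2 fold-change in Hep3B-C over Hep3B, for the 475 that reached 10 counts in a library of the pair, with colored lines at the miR-483 and miR-675 arms and a dashed line at the median of 1.42. The heights of the colored lines carry no value, and all 4 lie to the left of the median, from -2.98 to -0.23.

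The denominator bears on these sizes, because miRNA reads were 10.4% of the Hep3B library and 35.2% of the Hep3B-C library. Set against the median of all 475 miRNAs, a difference that does not depend on the library size, hsa-miR-483-3p was lower by a log2 difference of -4.41, the lowest of all 475, a place that restates the value on which it was selected. The same difference was -2.39 for hsa-miR-483-5p, 25th from the lowest, and -1.66 for hsa-miR-675, 40th from the lowest. With total miRNA counts as the library size, the log2 fold-changes became -4.75 for hsa-miR-483-3p, -2.73 for hsa-miR-483-5p and -2.0 for hsa-miR-675 (interval -2.90 to -1.13). With that size, with TMM library sizes and with DESeq2 size factors, 3 of the 3 were at least 2-fold lower in Hep3B-C. The shares of all miRNAs tested were 25.1%, 17.7% and 14.5% in the same order. The interval of hsa-miR-675 reached inside 2-fold with TMM (-2.55 to -0.78) and with DESeq2 size factors (-2.32 to -0.54). Nothing is read from these counts either, since hsa-miR-483-3p was chosen on this contrast. Under all 4 library sizes the 3 had negative log2 fold-changes, and the interval of hsa-miR-675 reached above 0 under total reads alone. The alternative sizes lower every log2 fold-change of this pair, so these signs could not turn. Which library size fits these cells was not tested.

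**Figure D3:**
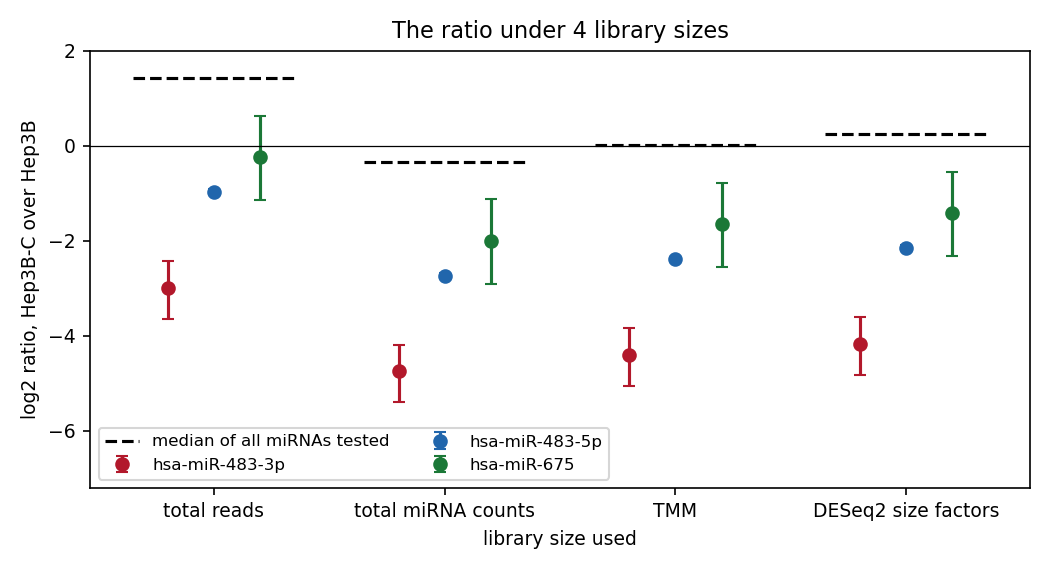
Log2 fold-change of the 3 miRNAs in Hep3B-C over Hep3B under 4 choices of library size, with bars for 95% exact binomial intervals and dashed lines at the median of all 475 miRNAs tested. A change of library size moves the 3 and the median by the same amount, so only their distance from 0 differs between choices, with the median going from 1.42 with total reads to -0.34 with total miRNA counts.

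The shares of arms within a hairpin do not depend on the library size. In both Hep3B-derived libraries the 5p arm made up nearly all miR-483 reads, and the 3p arm was rarer still in Hep3B-C. The 3p arm held 2.46% of 9586 miR-483 reads in Hep3B (95% Clopper-Pearson interval 2.16% to 2.79%). In Hep3B-C it held 0.611% of 4420 reads (0.403% to 0.888%). Put as reads, there were 39.6 of the 5p arm for each of the 3p arm in Hep3B, and 163 in Hep3B-C. The log2 ratio of 3p to 5p thus moved by -2.01. Among the 102 hairpins with both arms listed and at least 100 counts in each library of the pair, 10 (9.80%, miR-483 included) moved at least that far in either direction, and the median absolute move was 0.63. The move includes the lower count of hsa-miR-483-3p on which the miRNAs were selected, so it is a description and not separate support. Per total reads, both arms together were 1.995-fold lower in Hep3B-C for miR-483 (log2 fold-change -0.997, interval -1.05 to -0.95). Unlike the shares, this fold depends on the library size.

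For miR-675 the starred arm was the more abundant one. Hsa-miR-675 held 10.4% of 260 hairpin reads in Hep3B (interval 6.96% to 14.7%) and 13.5% of 156 in Hep3B-C (8.53% to 19.8%), intervals that overlap. If the starred name is the 3p arm as taken here, most reads came from the second of the capitalised stretches of the printed hairpin. Of the 73 such hairpins with a starred name, 8 (10.96%) had more reads on the starred arm in both libraries. The arm ratio of miR-675 moved by -0.43, and 68 of the 102 hairpins moved at least that far. For both arms together the log2 fold-change per total reads was -0.61 (interval -0.91 to -0.32), a value that depends on the library size. Of the miRNA reads from both hairpins, miR-675 gave 2.64% in Hep3B (interval 2.33% to 2.98%) and 3.41% in Hep3B-C (2.90% to 3.98%). The miR-483 hairpin thus gave most of the miRNA reads of the locus in both.

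**Figure D4:**
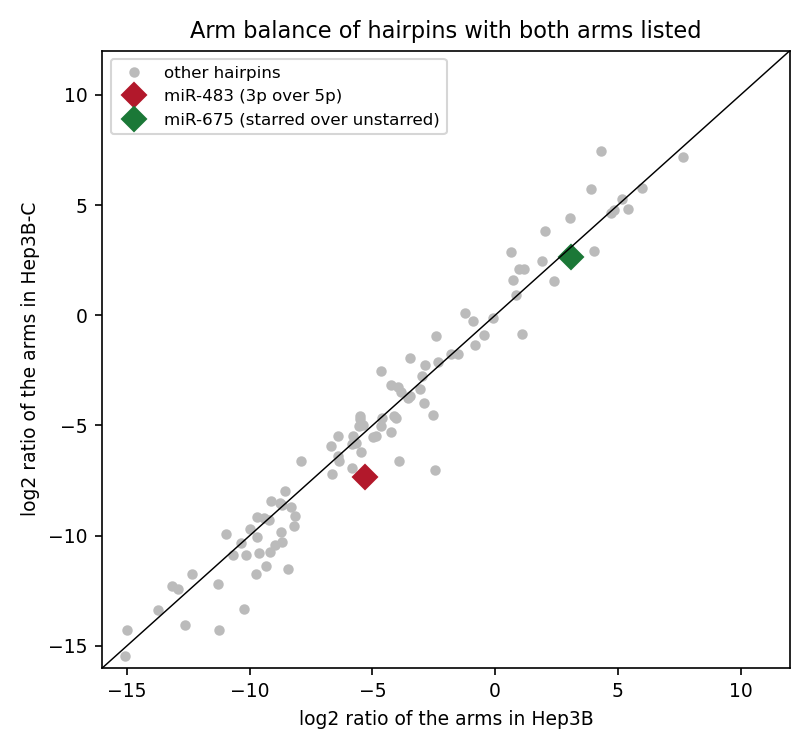
Log2 ratio of the arms of a hairpin in Hep3B against that in Hep3B-C, for the 102 hairpins with at least 100 counts in each library, with a line where the ratios are equal. The ratio is 3p over 5p, or starred over unstarred, and miR-483 lies 2.01 below the line while miR-675 lies near it at 0.43 below.

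The second comparison was of Huh7-C with Huh7 cells. Hsa-miR-483-3p and hsa-miR-483-5p had 0 counts in both libraries, and hsa-miR-675 had 1 and 0. None of the 3 reached 10 counts in either library, so no fold-change is given and no difference was detectable at this depth. The study's pairs cannot be compared for these miRNAs, since only the Hep3B pair had counts to compare. In the Huh7 pair, the miR-675 hairpin had 5 reads in Huh7 and 1 in Huh7-C, mostly of the starred arm.

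Between the parent lines, hsa-miR-483-5p was at least 1973-fold lower in Huh7 than in Hep3B, with 3 counts in the Huh7 library as the bound. Hsa-miR-483-3p was at least 49.8-fold lower by the same bound. With the lower 95% Poisson limit of the Hep3B counts these bounds become 1933 and 43.6. Hsa-miR-675, with 27 counts in Hep3B and 1 in Huh7, had a log2 fold-change of -3.54 (exact binomial interval -9.45 to -1.49). All 3 were more than 2-fold lower in Huh7, as were 87 (18.3%) of the 476 miRNAs tested, but they passed the minimum through Hep3B alone, so nothing is read from the count. Between the HCSCs, hsa-miR-483-5p was at least 1016-fold lower in Huh7-C than in Hep3B-C, hsa-miR-483-3p at least 6.25-fold lower and hsa-miR-675 at least 4.86-fold lower. With the lower limit of the Hep3B-C counts the bounds become 986, 4.12 and 3.01 in the same order. Here 235 (46.8%) of 502 miRNAs were more than 2-fold lower in Huh7-C. The 3 passed the minimum through Hep3B-C alone, so nothing is read from their being lower. Of the 357 miRNAs with at least 10 counts in Hep3B, 19 (5.32%) were at 0 in both Huh7-derived libraries, and hsa-miR-483-5p had the most Hep3B counts of these, ahead of hsa-miR-429 with 916.

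Other miRNAs of the chromosome were looked at as a group, by their position within 5 Mb of IGF2. Of the 5 listed, 2 passed the minimum of 10 counts in the Hep3B pair and 3 had 0 counts in all 4 libraries. Hsa-miR-210, a hypoxia-induced miRNA nearer the chromosome end, had 66.7 TPM in Hep3B and 14.8 TPM in Hep3B-C, against 188 TPM in Huh7 and 38.9 TPM in Huh7-C. It was lower in both stem-like populations, with log2 fold-changes of -2.17 and -2.27, and unlike the 3 miRNAs of the locus it was abundant in Huh7. Hsa-miR-4687-3p was at 5.57 TPM in Hep3B-C and 1.01 TPM in Hep3B, a log2 fold-change of 2.43 that became 0.66 with total miRNA counts. The group thus held 1 miRNA past 2-fold in each direction in the Hep3B pair, beside 66.5% higher and 5.05% lower among all miRNAs tested.

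MiRNAs of other imprinted genes were a further group, made up of both arms of miR-335 (in an intron of MEST), both arms of miR-296 and miR-298 (at GNAS). Of its 5 members, 4 passed the minimum in the Hep3B pair, where 1 was higher by 2-fold and 0 were lower, beside 66.5% and 5.05% of all miRNAs tested. With total miRNA counts or TMM as the library size, 0 were higher and 1 was lower, and with DESeq2 size factors 1 was higher and 1 lower. The 1 lower was hsa-miR-296-5p. Its interval reached inside 2-fold with TMM (-3.99 to -0.77) and with DESeq2 size factors (-3.76 to -0.53). Hsa-miR-335 had 137 counts in Hep3B, 226 in Hep3B-C and 0 in both Huh7-derived libraries, and hsa-miR-335* had 127, 204, 0 and 0. Hsa-miR-296-3p had 249 counts in Hep3B, 1148 in Hep3B-C and 1 in each Huh7-derived library. All 4 that passed were more than 2-fold lower in Huh7 than in Hep3B, beside 18.3% of all miRNAs tested, or 33.4% to 47.5% with the other library sizes. They passed the minimum through Hep3B alone, so nothing is read from that count. In the Hep3B pair their log2 fold-changes ran from -0.82 (hsa-miR-296-5p, 12 and 6 counts, interval -2.58 to 0.65, which holds the value of hsa-miR-483-5p) to 2.32 (hsa-miR-296-3p). With total miRNA counts hsa-miR-296-3p was at 0.56 and hsa-miR-296-5p at -2.59, and hsa-miR-335 and hsa-miR-335* turned from 0.84 and 0.80 to -0.92 and -0.96. The arm ratio of miR-296 moved by 3.15 toward the 3p arm in Hep3B-C, away from the direction of miR-483. This move rests on the 12 and 6 counts of hsa-miR-296-5p.

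A last group was 9 miRNAs known for targeting IGF signalling, which carries the signal of IGF2 through the receptor IGF1R. Of these, 6 passed the minimum in the Hep3B pair, where 4 were higher by 2-fold and 1 was lower, beside 66.5% and 5.05% of all miRNAs tested. Those higher were hsa-miR-122, hsa-miR-375, hsa-miR-7 and hsa-miR-99a, with log2 fold-changes of 8.68, 3.30, 3.77 and 1.84. The last of these was no longer past 2-fold with total miRNA counts (0.08), TMM (0.43) or DESeq2 size factors (0.66). Hsa-miR-100, which targets IGF1R and mTOR, was lower, at 77.9 TPM in Hep3B and 24.5 TPM in Hep3B-C. In the Huh7 pair 6 passed, of which 1 was higher and 2 were lower, beside 7.42% and 37.4% of the 431 miRNAs tested. Its median log2 fold-change from Hep3B to Hep3B-C was 2.57, so unlike the 3 miRNAs of the locus it lay above the median of all miRNAs.

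Likeness of profile was measured by the distance between log2 levels over the 4 libraries, each miRNA centred on its own mean, among the 546 others with at least 10 counts in a library. Nearest to hsa-miR-483-3p was hsa-miR-675*, from the same locus, at a distance of 2.34 on the log2 scale. It was followed at 2.37 by hsa-miR-218 (158, 142, 1 and 0 counts in Hep3B, Hep3B-C, Huh7 and Huh7-C) and at 2.62 by hsa-miR-885-5p (186, 159, 2 and 0 counts). Nearest to hsa-miR-483-5p were hsa-miR-200b, hsa-miR-429 and hsa-miR-200a, members of the miR-200 family that maintains epithelial identity. Their distances were 2.68, 2.86 and 3.65. Hsa-miR-200b had 3850 and 9812 counts in Hep3B and Hep3B-C, and 0 and 2 in Huh7 and Huh7-C. From Hep3B to Hep3B-C its log2 fold-change was 1.47 with total reads, 0.06 with TMM and -0.29 with total miRNA counts. Nearest to hsa-miR-675 were hsa-let-7d, hsa-miR-877 and hsa-miR-3188, at distances of 0.92, 1.01 and 1.15. The first had 253, 256, 9 and 7 counts. With 1 added count in place of 0.5, hsa-let-7d fell to place 4 and hsa-miR-877 stood at place 1. These distances rest on 4 libraries and on the 0.5 counts added where a library had 0.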

How the data were processed

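Small RNA of 4 cell populations was sequenced, with 1 library each. The authors aligned the reads that passed their quality and length filters (at least 18 nt) with SOAP against NCBI Build 36.1. Reads of other RNA classes were taken out, and miRBase release 17 supplied the miRNA names. The deposited values are raw read counts per miRNA, without normalization; how reads matching several miRNAs were shared is not given in the sources used here.

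Libraries were grouped by cell line. Counts were divided by the study's total reads per library to give TPM. Log2 fold-changes used 0.5 added counts, over miRNAs that reached 10 counts in a library of the pair. Their 95% intervals are exact binomial, those of levels exact Poisson and those of shares Clopper-Pearson, and all cover counting error only. Reads carry no molecular identifiers. With 1 library per population, the study's Poisson test would compare libraries and not conditions, so no p-value was computed. A miRNA past 2-fold was called.

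The miRNAs and lists were chosen with earlier results of these data known. Named were the 3 miRNAs, hsa-miR-675*, 3 lists (within 5 Mb of IGF2, other imprinted loci, IGF signalling), miRNAs sharing a seed, and the 3 nearest profiles of each. The calculation of the ratios was tested on simulated Poisson counts with known library sizes. Such counts cannot test replicate error or the choice of library size. Alternatives were other library sizes (edgeR TMM, DESeq2 size factors, total miRNA counts), pseudocounts, minimum counts and call rules. Python 3.11.15, numpy 2.4.6, scipy 1.17.1, pandas 2.3.3, R 4.3.3, edgeR 4.0.16 and DESeq2 1.42.0 were used. MRNA libraries were not analysed here.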

Additional observations from a re-analysis of the deposited data

How the results depend on the processing

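Depth limits hsa-miR-675 (at most 27 counts) and all 3 miRNAs in the Huh7-derived libraries. No paired analysis was possible with 1 library per population and at most 1 count of each miRNA in either library of the Huh7 pair. No test was made of these miRNAs. Log2 fold-changes of the 3 in the Hep3B pair were negative under each library size. Each alternative size lowers every log2 fold-change of this pair, so a negative value could not change sign. For hsa-miR-483-3p the log2 fold-changes were -4.75 with total miRNA counts, -4.40 with TMM and -4.16 with DESeq2 size factors. In the same order they were -2.73, -2.38 and -2.15 for hsa-miR-483-5p, and -2.0, -1.65 and -1.41 for hsa-miR-675. The bound on the fold between Huh7 and Hep3B became 260, 137 and 136 for hsa-miR-483-3p and 10288, 5434 and 5376 for hsa-miR-483-5p. Between Huh7-C and Hep3B-C it became 1091, 844 and 822 for hsa-miR-483-5p. In these cases the change follows from the library size itself, as it does for the counts past 2-fold. In the Hep3B pair those were 92, 121 and 140 higher and 119, 84 and 69 lower, and between Huh7 and Hep3B 226, 159 and 159 lower. The split of calls past 2-fold in the Hep3B pair was 92.9% higher with total reads and 43.6%, 59.0% and 67.0% with the other sizes. In the Huh7 pair it was 16.6% with total reads and 38.6%, 29.1% and 41.1%. With at least 1 count in place of 10, more miRNAs were tested. There were then 517 higher and 96 lower in the Hep3B pair, 411 past 2-fold in either direction in the Huh7 pair, 131 lower in Huh7 than Hep3B and 399 lower in Huh7-C than Hep3B-C. Requiring the whole counting interval past 2-fold left 9 lower in the Hep3B pair and 107 in either direction in the Huh7 pair. Of the alternatives chosen after seeing the data, 1 added count kept 3, 3 and 2 of the 3 nearest profiles of hsa-miR-483-3p, hsa-miR-483-5p and hsa-miR-675. The hairpins whose arms moved as far as those of miR-483 were 15 with at least 50 counts and 12 with 1 added count. The log2 fold-change of hsa-miR-675 in Huh7 over Hep3B lay between -5.92 and -4.98 with the other library sizes, within its wide counting interval. Other library sizes for the listed miRNAs were also chosen after seeing the data, and the log2 fold-change of hsa-miR-200b in the Hep3B pair turned to -0.29 with total miRNA counts. Over all alternatives, 69 values moved beyond their interval or 1.5 times, 35 did not, and 1, that of hsa-miR-200b, was counted apart as reversed. Signs also changed for hsa-miR-335, hsa-miR-335* and hsa-miR-497 in the Hep3B pair under each of the other library sizes. Those values stand among the 69 or the 35.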
